A study of Mus musculus with 10 samples.

Results

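The syntrophins and the dystrophin complex were measured in mouse cerebral cortex for 7 genes of 12393 named on the array, by 23 of the 22626 probe sets tested (a probe set is a group of short probes that together read a transcript). The genes were Sntb2, Sntb1, Dmd, Utrn, Dag1, Dtna and Sgce, and every probe set whose annotation gave one of them as its sole gene was taken. Sntb2 was chosen because the study's table of changed genes lists it, so its difference between the groups is given as a description with no test, while the other 6 genes were taken for belonging to the same complex. Cortex RNA came from 10 male mice at 6 months of age, of which 5 carried the label p97FE65 wild type and 5 the label p97FE65 null, with 1 Affymetrix mouse expression array per mouse. The null mice lack the full-length form of FE65, an adaptor of the amyloid precursor protein. The mutation was made in R1 embryonic stem cells, which come from another mouse strain, and the line was backcrossed to C57Bl/6J for 10 generations. The gene of FE65 lies on chromosome 7, and none of the 7 genes does.

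The dystrophin complex joins the cytoskeleton inside a cell to the extracellular matrix outside it. Dystroglycan spans the membrane and binds laminin and related matrix proteins, dystrophin or its relative utrophin ties it to actin, and dystrobrevins and syntrophins attach to dystrophin and bring in channels and enzymes. In brain the complex is known from the endfeet of astrocytes on blood vessels, where it anchors the water channel aquaporin-4, and from inhibitory synapses of neurons.

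All values are log2 expression made with GC-RMA, which subtracts background by probe GC content and normalizes between arrays, so a difference of 1 is a 2-fold change. Array medians lay between 3.01 and 3.14 and correlations between arrays between 0.994 and 0.999. FE65 (Apbb1) was read by probe sets 1423892_at, at 10.85 to 11.13 in the wild-type-labelled mice and 10.80 to 11.37 in the null-labelled mice, and 1423893_x_at, at 10.98 to 11.23 and 11.30 to 11.51. Both read a region outside the deleted exon, so their level does not show the deletion. For 1423893_x_at every null-labelled mouse was above every wild-type-labelled one, as in 0.292% of all probe sets. The study's notes give both FE65 probe sets as lower in null mice, the reverse of their direction under the labels. Of the cortex markers, the synaptic protein Snap25 was at a mean of 13.17 and the myelin protein Mbp at 13.95, whereas all 9 skeletal muscle markers had means of 3.30 or less. Bulk RNA cannot separate fewer cells of a type from less RNA per cell.

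Of the 23 probe sets, 15 were dim, meaning a mean under 5 over the 10 mice, as were 65.4% of all probe sets on the array. All 4 probe sets of Sntb2, both of Sntb1 and the single one of Sgce were dim. Dmd had 1 dim probe set of 3, Utrn 2 of 3, Dag1 3 of 4 and Dtna 2 of 6. The 8 that were not dim thus read Dmd, Utrn, Dag1 and Dtna alone. A dim probe set does not show that a gene is silent: Camk2a, an abundant kinase of cortical neurons, was read at 4.13 by its only probe set on these arrays.

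**Figure D1:**
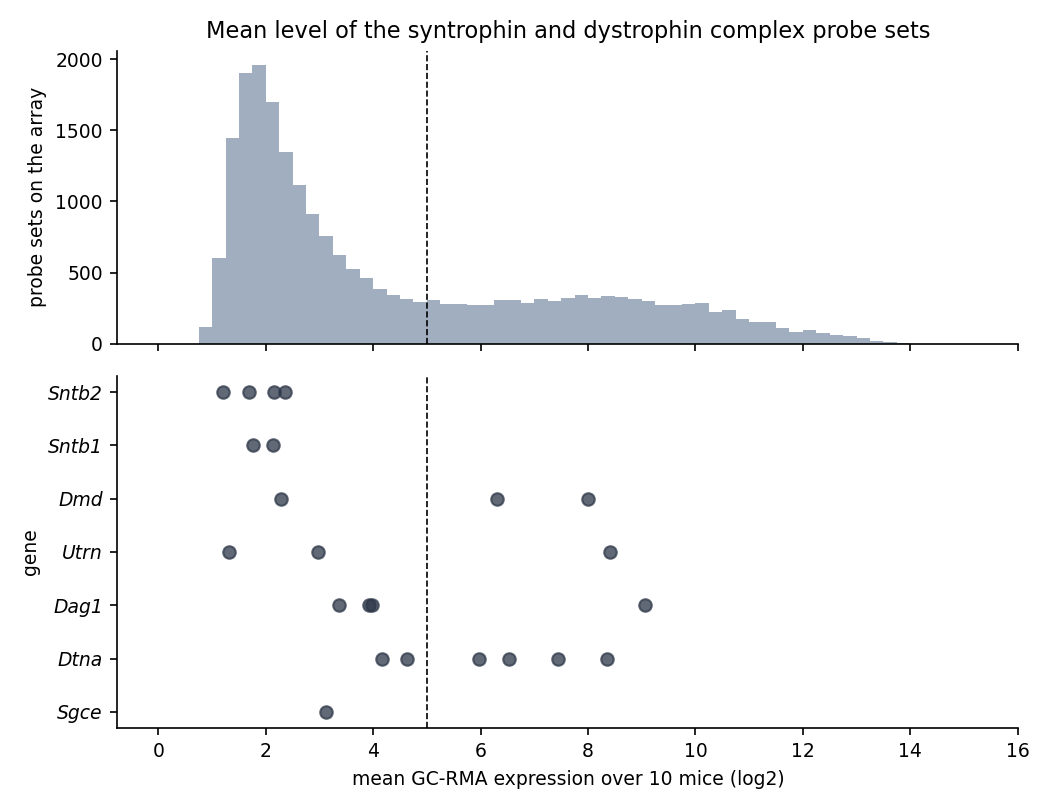
Top, number of probe sets on the array (vertical axis) by mean GC-RMA expression over 10 mice (log2, horizontal axis). Bottom, the 23 member probe sets by gene on the same horizontal axis, each point 1 probe set. The dashed line marks 5, and all Sntb2, Sntb1 and Sgce points lie to its left.

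Sntb2 (chromosome 8) encodes beta-2 syntrophin, a widely expressed adaptor known in mouse muscle from the neuromuscular junction, where it goes with utrophin. One of its 4 probe sets, 1449840_at, had the largest difference between the labels. In the wild-type-labelled mice (replicates 1 to 5) this probe set was at 2.64, 1.91, 2.18, 3.26 and 2.26. The null-labelled mice were at 1.65, 1.77, 1.74, 2.39 and 1.80. The groups overlapped, since wild type replicates 2, 3 and 5 lay below null replicate 4, and in each group replicate 4 was the highest.

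The means of 1449840_at were 2.45 ± 0.52 (SD, n = 5 mice) and 1.87 ± 0.30 (SD, n = 5), so that null-labelled minus wild-type-labelled was -0.58, or 1.495-fold lower. This sign too is the reverse of the study's. Which genotype each label stands for could not be settled here, so the mice are named by their labels throughout. Without wild type replicate 4 the difference was -0.38. The mean over all mice, 2.16, stood above those of 31.7% of all probe sets. The values of this probe set spanned 1.61 over the 10 mice, while the median span of the 6425 dim probe sets with a mean within 0.5 of it was 0.27. No mouse reached 4, so a floor at 4 left a difference of 0.

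The other Sntb2 probe sets spread little from mouse to mouse. Probe set 1420371_at, the brightest by its mean of 2.36, was at 2.29, 2.50, 2.30, 2.41 and 2.33 in the wild-type-labelled mice and at 2.24, 2.35, 2.35, 2.48 and 2.31 in the null-labelled mice. Its means were 2.37 ± 0.09 (SD, n = 5) and 2.35 ± 0.09 (SD, n = 5). Probe set 1420372_at was at 1.70, 1.68, 1.67, 1.68 and 1.65 against 1.63, 1.65, 1.69, 1.71 and 1.71, and its difference was 0.00045. In both probe sets the groups overlapped. Probe set 1436986_at was the dimmest of the 23 at a mean of 1.201, with 1.36, 1.15, 1.25, 1.22 and 1.19 against 1.16, 1.19, 1.12, 1.22 and 1.14, overlapping groups that differed by -0.06. According to the array annotation, 1449840_at, 1420371_at and 1420372_at were all designed on 1 source sequence. These 3 probe sets of one source therefore gave differences of -0.58, -0.02 and 0.00045.

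**Figure D2:**
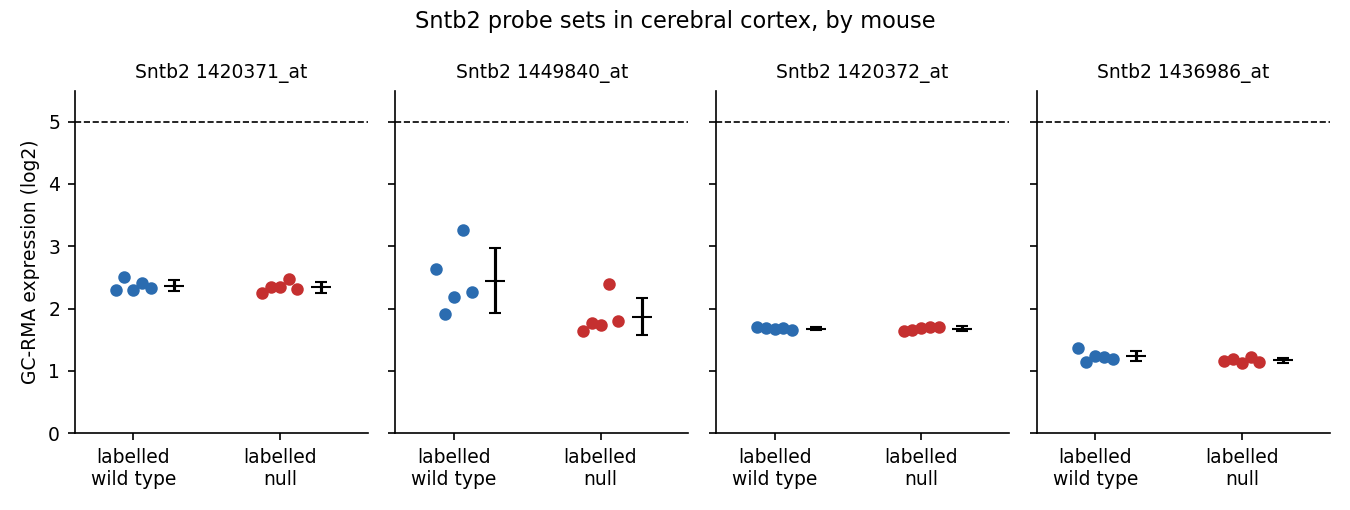
GC-RMA expression (log2, vertical axis) of the 4 Sntb2 probe sets, where points are mice, blue for wild-type-labelled (n = 5) and red for null-labelled (n = 5), in replicate order 1 to 5 from left to right, and black bars the mean with its SD. Every point lies below the dashed line at 5, the highest being wild type replicate 4 at 3.26 in 1449840_at, where 4 of the red points lie below all blue points and the fifth, at 2.39, among them.

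Genes with a pattern like that of Sntb2 were sought among 7154 probe sets with a mean of at least 5, by Pearson's r over the 10 mice after each group was centred on its mean. For 1449840_at the closest were Epb41l2, a membrane cytoskeleton protein (r = 0.90), Mkrn1 (r = 0.89), Cacul1 (r = 0.88), Dyrk1a, a protein kinase (r = 0.86), and Pcyt1a, an enzyme of phosphatidylcholine synthesis (r = 0.85). For 1420371_at they were Wnt7b, a secreted Wnt ligand (r = 0.95), Pilrb1 (r = 0.92), Ogfod2 (r = 0.92), Plekhg5 (r = 0.92) and Tubb5, a tubulin (r = 0.91). The lists had no gene in common, and r as low as -0.93 and -0.91 occurred at the other end. These r are descriptions of probe sets at a low signal, picked as the highest of 7154. Replicate 4 was the highest for 1449840_at in each group, so these mice weigh heavily in its r.

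Sntb1 (chromosome 15) encodes beta-1 syntrophin, the other beta form. Its brighter probe set, 1451938_a_at, was at 2.10, 2.12, 2.11, 2.18 and 2.10 in the wild-type-labelled mice and at 2.08, 2.16, 2.16, 2.22 and 2.17 in the null-labelled mice. The groups overlapped within a span of 0.13, and the difference was 0.03 (SE 0.04; limma, unadjusted p = 0.400). Probe set 1421455_at differed by 0.03 as well (SE 0.04).

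Of the 19 probe sets of the 6 genes other than Sntb2, 0 passed an adjusted p of 0.05 in limma, as did 0 of the 22626 (0%). At an unadjusted p under 0.05 there were 0 of the 19 as well, against 3.67% of all probe sets (1.24% higher and 2.43% lower in the null-labelled mice, or 281 and 549, which became 524 and 420 after quantile normalization). These p-values set each difference against the spread between these mice, with the spread of each probe set drawn towards that of all. Littermate pairs were left out. Adjusted p-values of the 19 all rounded to 0.999. Differences were negative in 10 and positive in 9, with a median of -0.0015 beside -0.00036 over all probe sets. The median size was 0.06 beside 0.05 over all. In none of the 23 did the labelled groups lie wholly apart, against 0.623% of all probe sets.

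**Figure D3:**
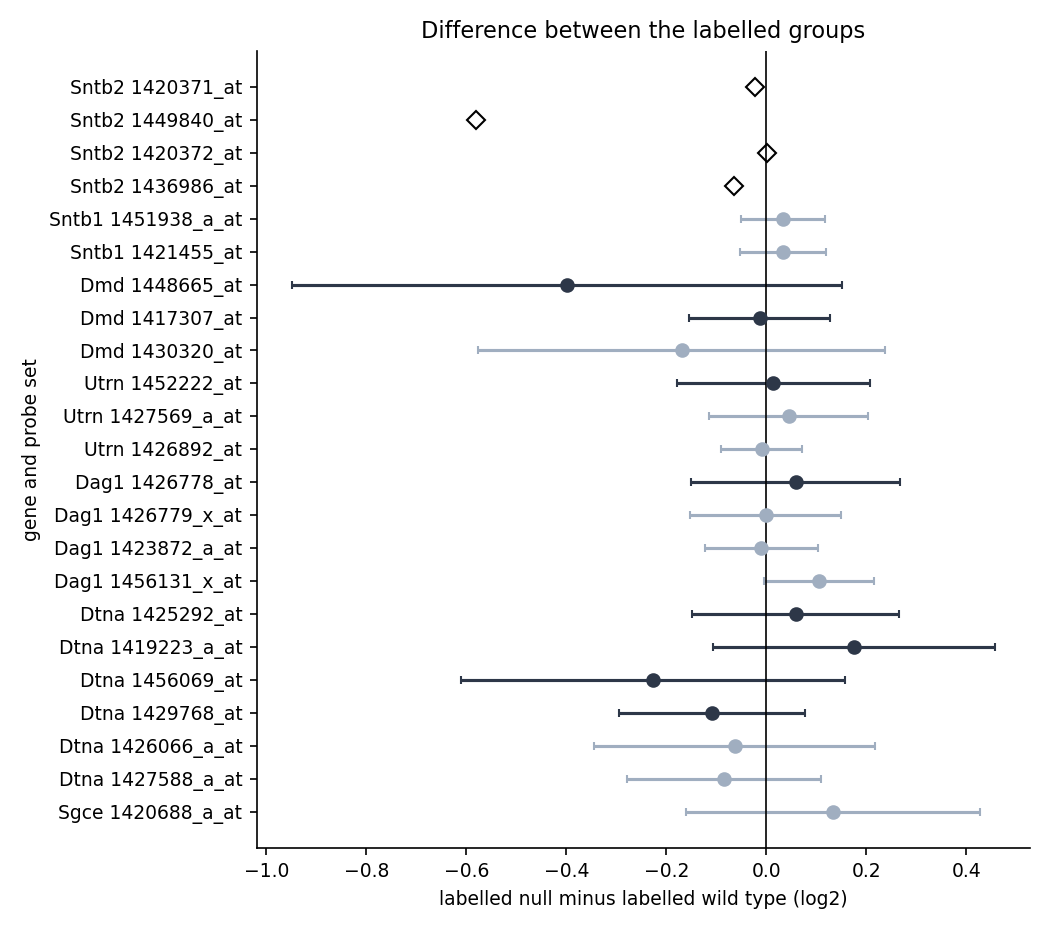
Null-labelled minus wild-type-labelled mean (log2, horizontal axis) for the 23 member probe sets (vertical axis), with the 95% interval from limma as a bar (dark, not dim; grey, dim). Open diamonds are the 4 Sntb2 probe sets, shown without an interval because the gene was chosen by this difference. Every interval includes 0, and the widest is that of Dmd 1448665_at.

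Dmd (chromosome X) encodes dystrophin, of which brain makes both full-length and short forms. Its brightest probe set, 1448665_at, was at 7.53, 8.91, 8.59, 8.12 and 7.87 in the wild-type-labelled mice. The null-labelled mice were at 7.57, 7.95, 7.97, 7.41 and 8.13. Wild type replicates 2 and 3 were above every null-labelled mouse, and wild type replicate 1 was nearly the lowest of all 10. The means were 8.20 ± 0.55 (SD, n = 5) and 7.81 ± 0.30 (SD, n = 5), which leaves a difference of -0.40 (SE 0.25, 95% interval from -0.95 to 0.15). This was the largest difference among the 19 probe sets, by size (limma, unadjusted p = 0.138). It depended on single mice, being -0.57 without wild type replicate 1 (unadjusted p = 0.0295) and -0.22 without wild type replicate 2 (unadjusted p = 0.331).

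The second bright Dmd probe set varied far less. Probe set 1417307_at, designed on the same source sequence as 1448665_at, lay between 6.27 and 6.36 in the wild-type-labelled mice and between 6.09 and 6.45 in the null-labelled mice. Its span over the 10 mice was 0.37, against 1.497 for 1448665_at, and its difference was -0.01 (SE 0.06, 95% interval from -0.16 to 0.13). Within each mouse, 1448665_at minus 1417307_at was 1.89 ± 0.56 (SD, n = 5) in the wild-type-labelled group and 1.503 ± 0.29 (SD, n = 5) in the null-labelled group. The difference between them, -0.38, was within the spread of the mice (two-sided exact permutation test, p = 0.230, adjusted over 5 such comparisons 0.288). The dim probe set 1430320_at differed by -0.17 (SE 0.18).

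The spread of Dmd 1448665_at went with array-wide variation. A first principal component over all probe sets held 37.9% of the variance among the arrays, and the mice lowest for this probe set, null replicate 4, wild type replicate 1 and null replicate 1, were the 3 at one end of it. Wild type replicate 2, the highest, was at the other end. The part of array-wide variation in the Dmd difference was not tested.

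Utrn (chromosome 10) encodes utrophin, the close relative of dystrophin. Its bright probe set 1452222_at was at 8.49, 8.43, 8.27, 8.38 and 8.41 in the wild-type-labelled mice and at 8.36, 8.39, 8.40, 8.18 and 8.71 in the null-labelled mice. The null values lay on both sides of the wild type ones, and the difference was 0.01 (SE 0.09, 95% interval from -0.18 to 0.21). Its dim probe sets 1427569_a_at and 1426892_at differed by 0.04 (SE 0.07) and -0.01 (SE 0.04).

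Dag1 (chromosome 9) encodes dystroglycan, the receptor of the complex for the matrix. In the wild-type-labelled mice its bright probe set 1426778_at was at 9.12, 9.09, 8.80, 9.06 and 9.08. The null-labelled mice were at 9.26, 9.12, 8.90, 8.89 and 9.27. The groups overlapped and the difference was 0.06 (SE 0.09, 95% interval from -0.15 to 0.27). Dim probe set 1456131_x_at, whose suffix marks probes that may also match other transcripts, had the smallest p of the 19 at a difference of 0.10 (SE 0.05; limma, unadjusted p = 0.0599). The wild-type-labelled mice lay between 3.24 and 3.37 and the null-labelled mice between 3.34 and 3.54. The difference was 0.12 without null replicate 2 (limma, unadjusted p = 0.0438). It was 0.07 without null replicate 1 (limma, unadjusted p = 0.143), so it depended on single mice. The other dim probe sets, 1426779_x_at and 1423872_a_at, differed by -0.0015 and -0.01.

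**Figure D4:**
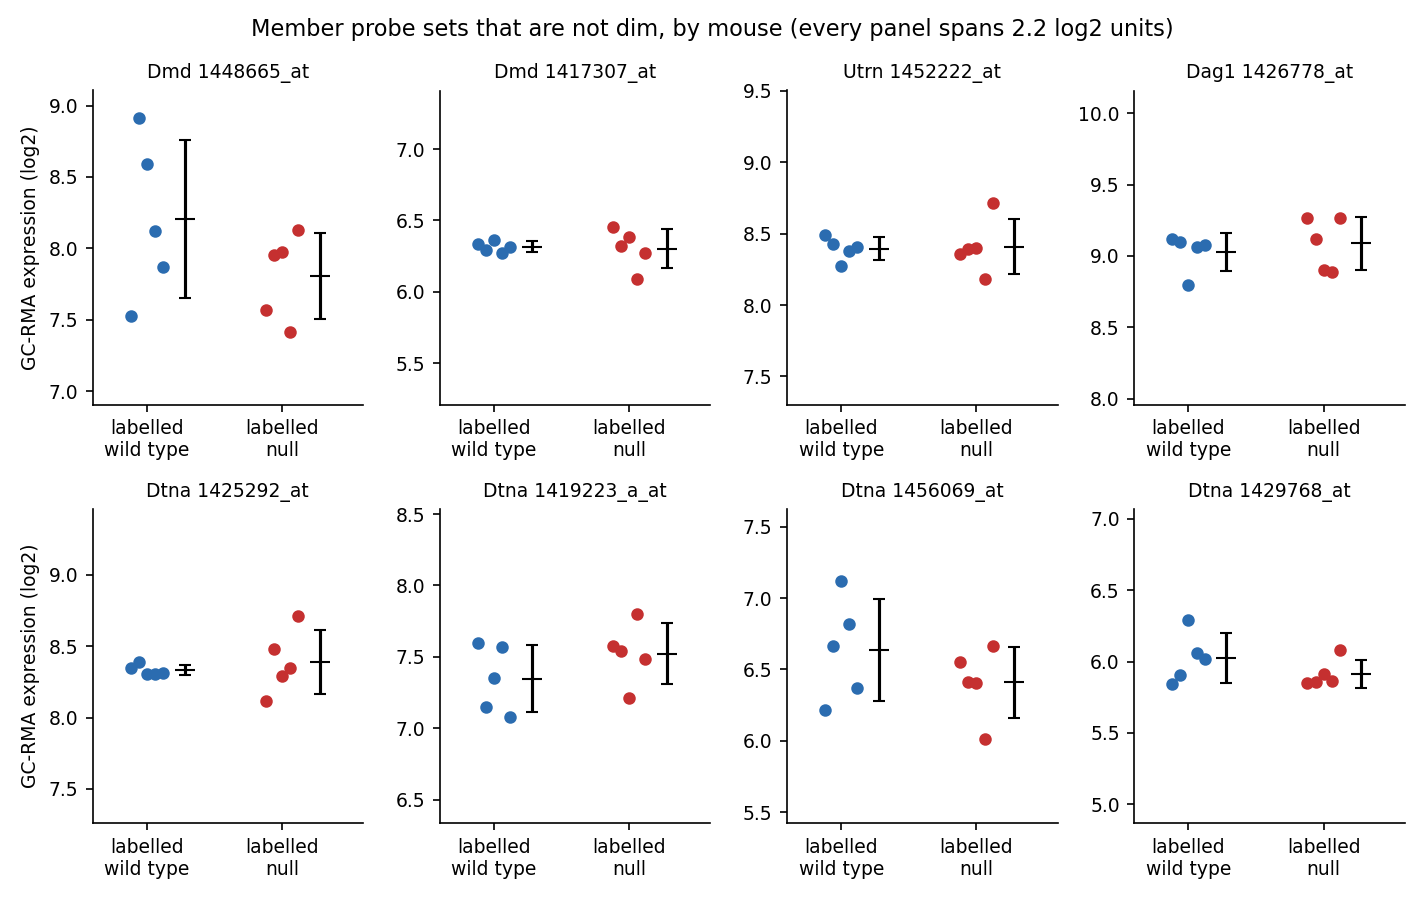
GC-RMA expression (log2, vertical axis) of the 8 member probe sets that were not dim, where points are mice, blue for wild-type-labelled (n = 5) and red for null-labelled (n = 5), in replicate order 1 to 5 from left to right, and black bars the mean with its SD. All panels span the same number of log2 units, and in each of them the groups overlap, with Dmd 1448665_at showing the widest spread.

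Dtna (chromosome 18) encodes alpha-dystrobrevin, which binds both dystrophin and syntrophins and is spliced into several forms. Its brightest probe set, 1425292_at, was at 8.35, 8.39, 8.30, 8.31 and 8.31 in the wild-type-labelled mice. In the null-labelled mice it was at 8.12, 8.48, 8.29, 8.35 and 8.71. The null values spread to both sides of the narrow band of the wild type ones (SD 0.22 against 0.04, n = 5 each), with a difference between the means of 0.06 (SE 0.09).

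The other Dtna probe sets differed in both directions. Probe set 1419223_a_at, which reads several transcript forms, had the largest positive difference of the 19 at 0.17 (SE 0.13, 95% interval from -0.11 to 0.46), with wild-type-labelled mice between 7.08 and 7.60 and null-labelled mice between 7.21 and 7.80. Probe set 1456069_at was at -0.23 (SE 0.17), from 6.22 to 7.12 and from 6.01 to 6.67, and 1429768_at at -0.11 (SE 0.08). Across the 10 mice, 1419223_a_at was lower where the signal near the 3′ end of Actb exceeded that near its 5′ end the most, with r = -0.80 and rho = -0.72 (permutation p = 0.00646 and 0.0228, adjusted over 16 such relations of the 8 bright probe sets 0.103 and 0.238). Without the 2 farthest mice r was -0.61, and against Gapdh it was -0.59, with rho of -0.53 (permutation p = 0.0728 and 0.122, adjusted 0.583 and 0.490), and 0.05 without the 2 farthest mice. Other bright probe sets went the other way against Gapdh. Dtna 1425292_at had r = 0.34 and rho = 0.67 (permutation p = 0.336 and 0.04, adjusted 0.834 and 0.238). Utrn 1452222_at had r = 0.33 and rho = 0.66 (permutation p = 0.352 and 0.0445, adjusted 0.834 and 0.238). Probe set 1419223_a_at had r = 0.62 with the first principal component. The part of the end signal or of array-wide variation in the Dtna difference was not tested. The dim probe sets 1426066_a_at and 1427588_a_at were at -0.06 (SE 0.13) and -0.08 (SE 0.09). Within each mouse, 1456069_at minus 1419223_a_at was -0.71 ± 0.43 (SD, n = 5) in the wild-type-labelled group and -1.11 ± 0.40 (SD, n = 5) in the null-labelled group. The difference of -0.40 was within the spread of the mice too (two-sided exact permutation test, p = 0.159). The other 3 comparisons within Dtna had exact permutation p of at least 0.183.

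Sgce (chromosome 6) encodes epsilon-sarcoglycan, the sarcoglycan whose loss in humans causes myoclonus-dystonia. Its only probe set, 1420688_a_at, was at 3.27, 2.50, 3.25, 3.14 and 3.13 in the wild-type-labelled mice and at 3.32, 3.15, 3.19, 3.22 and 3.09 in the null-labelled mice. All mice but wild type replicate 2 lay between 3.09 and 3.32, and the difference was 0.13 (SE 0.13). Without wild type replicate 2 it was -0.0063.

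Levels of the 8 bright probe sets were compared with each other across the 10 mice, in 28 pairs. None passed an adjusted p of 0.05 over the pairs (permutation tests of r, 0 of 28), and 4 had an unadjusted p under 0.05. Dmd 1448665_at and Dtna 1456069_at varied together with r = 0.75 and rho = 0.83 (permutation p = 0.0130 and 0.00474, adjusted over the pairs 0.182 and 0.133). Without the 2 mice farthest from the median of the Dmd probe set, r was 0.77, and with each group centred it was 0.70. Other probe sets of these genes did not share this relation throughout. Dmd 1448665_at had r = -0.61 with Dtna 1419223_a_at, 0.23 with 1425292_at and 0.54 with 1429768_at. Dmd 1417307_at and Dtna 1456069_at had r = 0.41 and rho = 0.05. Dtna 1456069_at and 1429768_at had r = 0.79 and rho = 0.66 (permutation p = 0.00513 and 0.0432, adjusted 0.144 and 0.303), and Utrn 1452222_at and Dag1 1426778_at r = 0.69 and rho = 0.59 (permutation p = 0.0240 and 0.0810, adjusted 0.224 and 0.355). Utrn 1452222_at and Dtna 1425292_at had r = 0.68 and rho = 0.58 (permutation p = 0.0496 and 0.0888, adjusted 0.339 and 0.355). Without the 2 farthest mice these r were, in that order, 0.58, 0.49 and 0.31. With the first principal component, r was -0.91 for Dmd 1448665_at, -0.59 for Dtna 1456069_at and -0.49 for Dtna 1429768_at. It was -0.41 for Utrn 1452222_at, 0.0026 for Dag1 1426778_at and -0.51 for Dtna 1425292_at. The part of array-wide variation in these pairs was not tested.

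**Figure D5:**
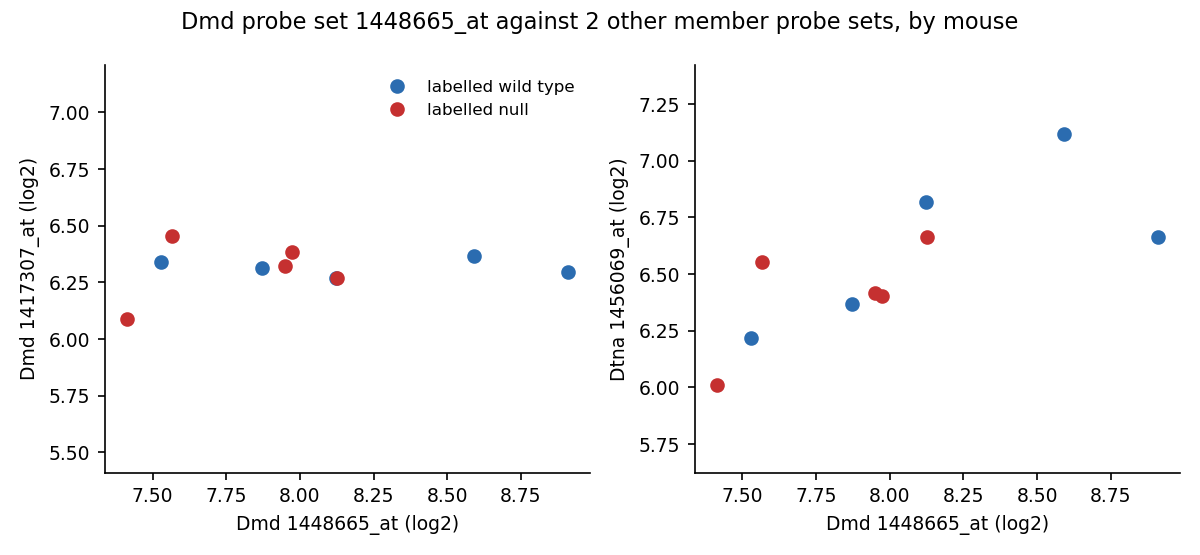
Dmd 1448665_at (log2, horizontal axes) against Dmd 1417307_at (left) and Dtna 1456069_at (right; log2, vertical axes of equal span), where points are mice, blue for wild-type-labelled and red for null-labelled. A blue and a red point coincide on the left near 8.12. The left points stay within 0.37 of each other vertically, and the right ones climb with the Dmd probe set (r = 0.75, permutation p = 0.0130, adjusted over 28 pairs 0.182).

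Further genes of the complex and its partners were read from 6 lists, each gene by its brightest probe set. In each list 0 genes had an adjusted limma p under 0.05. Sntg1 and Sntg2, the gamma syntrophins, were dim and differed by 0.02 (SE 0.07) and 0.04 (SE 0.07). Beta-dystrobrevin, Dtnb, was dim too and differed by -0.09 (SE 0.08). Of the sarcoglycans, Sgcb was bright with a mean of 7.99 and a difference of -0.12 (SE 0.09), while Sgca and Sgcd were dim and differed by 0.02 (SE 0.05) and 0.08 (SE 0.04). Sspn, sarcospan, was at 4.58 with a difference of -0.03 (SE 0.08).

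Of 11 measured genes for the sugar chain by which dystroglycan binds its ligands, 7 were not dim and 0 had an unadjusted p under 0.05 (3.67% of all probe sets did), with a median difference of 0.0031. The gene with the smallest p, Rxylt1, a xylosyltransferase, was at -0.14 (SE 0.08), and Pomgnt1, an enzyme of O-mannosyl glycans, at 0.09 (SE 0.06). Dpm1, of dolichol-phosphate-mannose synthesis, differed by 0.07 (SE 0.05), and the dim B3galnt2 by -0.09 (SE 0.07). Of 11 measured ligand genes, 0 had an unadjusted p under 0.05, beside the same 3.67%, and the smallest p was that of Lamb1, a laminin chain, at -0.13 (SE 0.07). Bgn, a matrix proteoglycan, differed by -0.13 (SE 0.10), and the dim laminin chains Lama1 and Lama4 by 0.05 (SE 0.04) and 0.06 (SE 0.05).

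Among 22 measured partners of syntrophins and dystrophin, 1 had an unadjusted p under 0.05 and it was lower in the null-labelled mice, against 2.43% of all probe sets lower at that p. Bright probe sets as a whole leaned lower, with a median difference of -0.05, and fitted alone 307 of 7827 were lower and 47 higher at that p. The partner at that p was Nlgn2, the adhesion protein of inhibitory synapses, with a mean of 10.14 and a difference of -0.28 (SE 0.10; limma, unadjusted p = 0.0236, adjusted p = 0.999). Of 8 neuron markers, 3 were lower as well at an unadjusted p under 0.05 (Tubb3, Nefl and Rbfox3, which was dim). Syt1 and Gad2 differed by 0.07 each, and Snap25, Gad1 and the dim Camk2a by -0.09, -0.11 and -0.15, without reaching that p. The mean over the list ranged from 9.35 to 9.65 in the wild-type-labelled mice and from 9.13 to 9.53 in the null-labelled mice. The part of neuronal RNA in the Nlgn2 value was not tested. Aqp4, the water channel of astrocyte endfeet, differed by 0.16 (SE 0.12), and Nos1, the neuronal nitric oxide synthase that syntrophins bind, was dim at 3.02 and differed by 0.16 (SE 0.09). The dim potassium channel gene Kcnj12 differed by -0.06 (SE 0.05). Of 9 astrocyte markers 1 and of 10 endothelial markers 1 had an unadjusted p under 0.05, S100b and Egfl7, both lower in the null-labelled mice. Of 10 mural cell markers, 1 was lower (Rgs5, -0.24, SE 0.08) and 1, dim, was higher (Abcc9, 0.17, SE 0.06). Astrocyte list means ranged from 9.04 to 9.22 in the wild-type-labelled and from 9.01 to 9.18 in the null-labelled mice, and endothelial list means from 4.60 to 4.80 and from 4.58 to 4.70. Of 6 oligodendrocyte markers 2, Mbp and Cldn11, were lower at that p too, and of 7 microglia markers 0 were in either direction.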

How the data were processed

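Total RNA from the cortex of each mouse was hybridised to 1 array. The authors made log2 expression values with GC-RMA (version not given in the sources used here), and these deposited log2 values were used without further normalization. Probe sets were named by the platform annotation, updated through gene identifiers to assembly GRCm38.p6. Of 22690 probe sets, 64 controls were left out, and of the other 22626, 20380 had 1 gene, 691 several and 1555 none. Samples were grouped by their labels.

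The 2 labels were compared, null less wild type, by limma 3.58.1 (lmFit and eBayes; R 4.3.3) over all 22626 probe sets without a filter, and p-values were adjusted by Benjamini-Hochberg. The methods describe littermate pairs without saying which arrays form one. Same-numbered arrays deviated together with r from 0.05 to 0.46, so the numbers were not taken as pairs. Differences within a gene were tested with exact permutation tests, correlations with 100000 permutations (scipy 1.17.1). Each listed gene was read by its brightest probe set, and the named ones were up to 4 per list with the smallest p. Likeness was ranked among probe sets with a mean of at least 5, and 5 were named. The members and lists were chosen with earlier results of these data known. The comparisons within Dmd and within Dtna, the relations to Actb and Gapdh and the mention of Camk2a were chosen after the values were seen. The small number of arrays limits the precision. Alternatives were median centring, quantile normalization, a filter on the mean, a floor at 4, a trended robust prior, array weights, the methods' Student test, the replicate number as a block and leaving out each array.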

Additional observations from a re-analysis of the deposited data

Results flagged for a closer look

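Of 46 groups of 5 mice, 2 for each member probe set, 6 held a mouse flagged by Dixon's test, where chance flags about 1 in 20. In these the gap to the nearest other mouse, as a share of the range of the group, exceeded the 95% critical value. In the null-labelled mice these were replicate 4 for Sntb2 1449840_at (2.39, the next at 1.80) and replicate 5 for Dtna 1429768_at (6.08, the next at 5.91). In the wild-type-labelled mice replicate 4 was the highest for Sntb1 1451938_a_at (2.18, the next at 2.12) and the lowest for Sntb1 1421455_at (1.65, the next at 1.75). Wild type replicate 3 was the lowest for Dag1 1426778_at (8.80, the next at 9.06), and wild type replicate 2 the lowest for Sgce 1420688_a_at (2.50, the next at 3.13).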

How the results depend on the processing

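An unadjusted limma p under 0.05 was reached by 830 of all probe sets, 281 higher and 549 lower. At 3.67%, this count was below the share of 0.05 that such a threshold gives on average with no difference. This count was 354 without probe sets of a mean under 5, which leaves fewer to test, 445 with a floor at 4, 1449 with array weights, and from 595 to 1655 when each array was left out in turn, the highest without null replicate 5. After quantile normalization 524 were higher and 420 lower. The count of member probe sets other than Sntb2 was 0. It was 1 with the replicate number as a block, where 1078 of all probe sets passed the same threshold, and 1 with the methods' t-test, each time Dag1 1456131_x_at (unadjusted p = 0.0456 and unadjusted p = 0.0466). Leaving out each array in turn gave from 0 to 1, the 1 being Dmd 1448665_at without wild type replicate 1 and Dag1 1456131_x_at without null replicate 2. At an adjusted p of 0.05 each of these fits called 0 probe sets. Of the 5 wild type arrays, only replicate 1 correlated best with the null array of its own number. For Sntb2 1449840_at the difference ranged from -0.71 to -0.38 when each array was left out. With a floor at 4, the differences of Sntb2 1449840_at and Dag1 1456131_x_at became 0, because all their values lay under it, and the filter on the mean gave no value for the 15 dim probe sets. Low signal thus limits Sntb2, Sntb1 and Sgce, which no bright probe set read.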

Other observations

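Chosen after its values were seen, Dmd 1448665_at was also compared with 7152 probe sets of a mean of at least 5 by r over the 10 mice, each group centred on its mean. The closest were Mospd2 (r = 0.98), Hmgn5, a nucleosome-binding protein (r = 0.97), Hnrnph1, a splicing factor (r = 0.97), Hmgn1 (r = 0.96) and Htatsf1 (r = 0.96), and the lowest r was -0.96. The signal near the 3′ end minus that near the 5′ end of Gapdh ranged from -0.04 to 0.27 in wild-type-labelled mice and -0.07 to 0.12 in null-labelled mice, and that of Actb from -0.03 to 0.35 and from -0.03 to 0.37.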
